A study of Hordeum vulgare with 30 samples.

Results

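The genes described here are 6 kinases and regulators of barley (Hordeum vulgare) that lie in quantitative trait loci (QTL) for waterlogging tolerance, followed in seedling roots. A QTL is a stretch of a chromosome whose alleles go with differences in a trait, here the formation of adventitious roots and of air spaces (aerenchyma) in the root cortex. The 6 genes were chosen by their annotation from a list of 28 QTL candidates that the study had carried over to the Morex version 3 gene set by best sequence match. The rule took regulatory genes that hold counts in these libraries and names no value of the comparisons below. It was set with earlier results of these data known. It left out 3 other kinase genes of the list that also hold counts, as well as the ethylene response factors. Of the 35826 genes in the table, 20576 had enough counts to be tested, among them all 6 kinases and regulators and 15 of the other 22 candidates.

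Identifiers carry the prefix HORVU.MOREX.r3., which is dropped below after this list. HORVU.MOREX.r3.2HG0187930 is annotated as a kinase family protein, HORVU.MOREX.r3.2HG0188270 as a protein kinase, and HORVU.MOREX.r3.5HG0508880 as a leucine-rich repeat (LRR) protein kinase family protein. HORVU.MOREX.r3.1HG0075830 is annotated as a polypyrimidine tract-binding protein-like protein, HORVU.MOREX.r3.7HG0736350 as an F-box/LRR-repeat protein, and HORVU.MOREX.r3.5HG0422490 as a haloacid dehalogenase-like (HAD-like) hydrolase. The annotation of the hydrolase names an enzyme fold and no regulatory role, so it stands among the regulators by the choice of the list only. The letters and first digit of an identifier give the chromosome, so that the genes fall on 1H, 2H, 5H and 7H. Positions within the chromosomes and sequences were not used here.

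Protein kinases attach phosphate to other proteins and so pass on signals inside the cell, and many plant kinases with LRR domains sit in the plasma membrane and bind ligands from outside. Polypyrimidine tract-binding proteins bind pyrimidine-rich stretches of RNA and, in Arabidopsis, regulate alternative splicing. F-box proteins are the subunits of ubiquitin ligases that recognize the protein to be marked for degradation. HAD-like hydrolases form a large family with many phosphatases. Waterlogged soil holds little oxygen, and roots in it switch to fermentation and can form adventitious roots and aerenchyma.

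Roots were sampled from 5 varieties: Golden Promise, a 2-row spring barley, Infinity and Regina, both 2-row winter barleys, and Passport and Pilastro, both 6-row winter barleys. Seedlings 10 days old were either waterlogged for 24 h or kept as controls without waterlogging, with 3 libraries for each variety and treatment and 30 in all. Each library held the pooled roots of 3 plants, and the replicates came from independent runs of the experiment. Sample names are numbered 1 to 3 in the 2-row varieties and 5 to 7 in the 6-row varieties, so a difference between the numbering sets cannot be told apart from one between row types.

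Libraries held 9601984 to 12349136 counts (median 11982158). Levels are given as counts-per-million (CPM) of the library total after TMM scaling, whose factors ran from 0.942 to 1.06. Because gene lengths were not at hand, levels were compared between libraries and not between genes. No libraries of a group were duplicates: the counts of the 30 pairs of libraries within groups differed by 13.8 to 57.3 times the chi-square that counting error gives per degree of freedom. The leaf markers fixed for a check of the tissue, the Rubisco small chain and Rubisco activase, together reached 1.91 to 10.1 CPM. The root marker lateral root primordium 1 was present in every library, at 5.11 to 21.1 CPM. The hypoxia markers HvHB, HvADH1 and HvPDC1 were upregulated in 5 of 5 varieties each, with log2 fold changes of 2.23 to 6.40 and adjusted p of at most 0.0441 in edgeR's quasi-likelihood test.

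None of the 6 genes was called as a differentially expressed gene (DEG) after waterlogging in any of the varieties. That is 0 of 30 comparisons of a gene within a variety at a Benjamini-Hochberg adjusted p under 0.05 in edgeR, with adjusted p from 0.208 to 1. An unadjusted p under 0.05 was reached in 1 of them, and DESeq2 also called 0. The share of all genes tested that was called came to 0.442% for Golden Promise, 3.92% for Infinity, 1.08% for Passport, 3.82% for Pilastro and 4.04% for Regina, shares at which a list of 6 genes holds few calls. At an unadjusted p under 0.05 these shares were 6.49% for Golden Promise, 17.4% for Infinity, 13.6% for Passport, 20.1% for Pilastro and 15.1% for Regina. Averaged over the varieties, 1 of the 6 genes was called, the HAD-like hydrolase, which rose, against 27.1% of all genes called and 12.7% called upward. The median size of the change over the 6 genes was 0.17 on the log2 scale, beside 0.16 over all genes tested. In bulk roots, a change in the share of a cell type and a change in RNA per cell cannot be told apart.

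**Figure D1:**
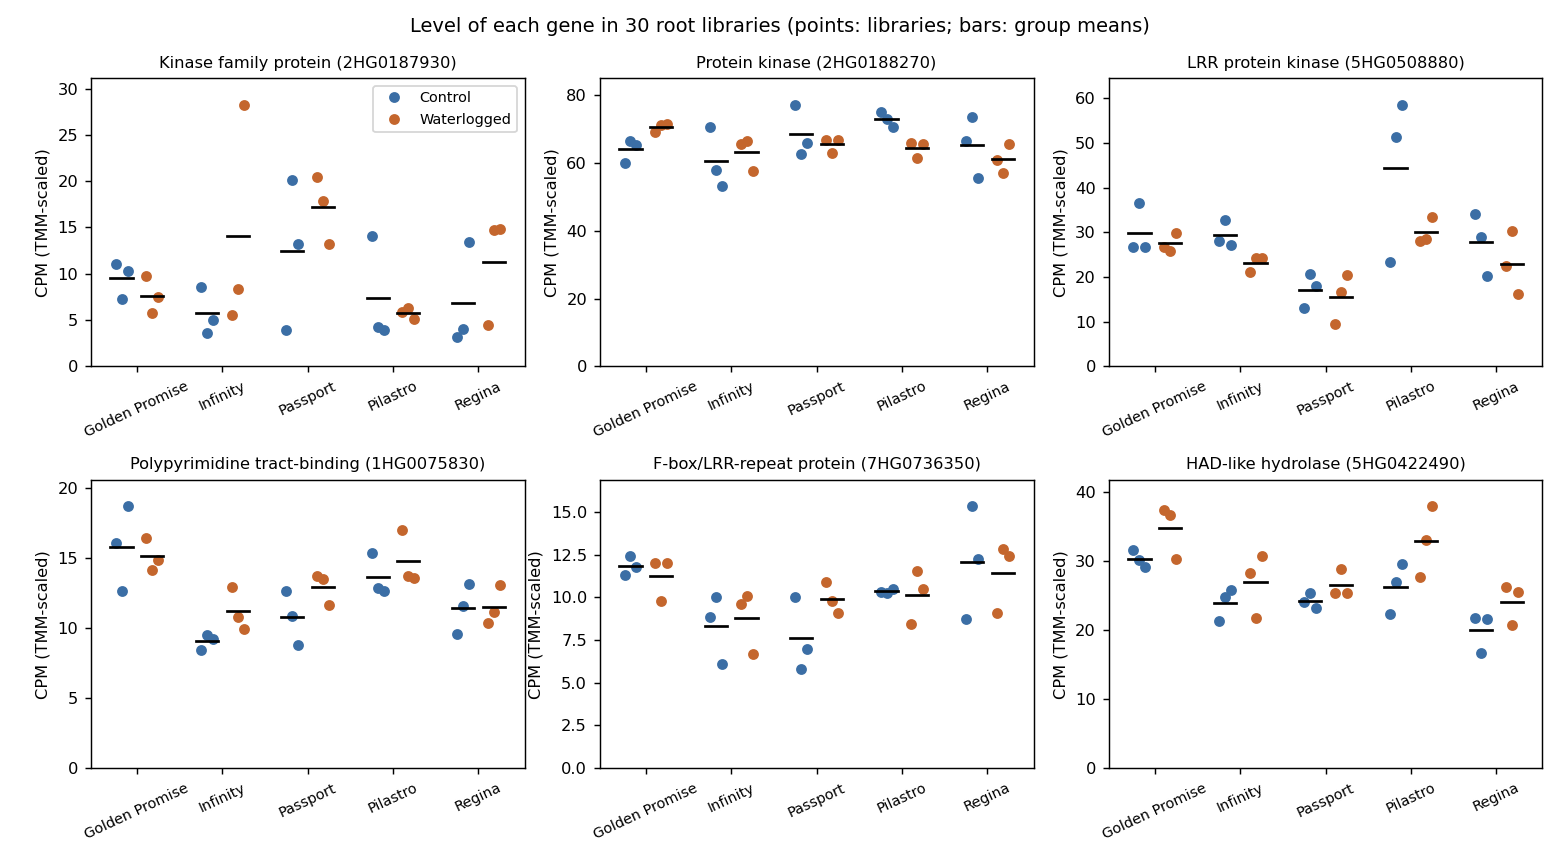
Level of each of the 6 genes (y axis, TMM-scaled CPM from 0) in the 30 root libraries, by variety on the x axis; points are libraries, black bars are means of 3 libraries, blue is control and orange waterlogged. The kinase family protein 2HG0187930 spreads from 3.15 to 28.3 CPM within and across groups, whereas the protein kinase 2HG0188270 stays between 53.2 and 77.1 CPM.

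The HAD-like hydrolase 5HG0422490 was higher after waterlogging in each of the 5 varieties by its group mean. In Golden Promise it read 31.6, 30.1 and 29.1 CPM in the controls and 37.4, 36.6 and 30.2 CPM in the waterlogged libraries. In Infinity the controls read 21.3, 24.8 and 25.7 CPM and the waterlogged libraries 28.2, 21.7 and 30.7 CPM. In both varieties the lowest waterlogged library fell among the controls, so the groups overlapped. Passport controls held 24.1, 25.4 and 23.2 CPM, and its waterlogged libraries held 25.3, 28.8 and 25.4 CPM. Pilastro controls held 22.3, 27.0 and 29.5 CPM, and its waterlogged libraries held 27.6, 33.1 and 37.9 CPM. Regina controls held 21.7, 16.7 and 21.6 CPM, and its waterlogged libraries held 26.1, 20.7 and 25.4 CPM. The 2 groups overlapped in all 5 varieties when taken without pairs, and Regina controls were the lowest of the 10 groups (20.0 ± 2.88 CPM, SD, n = 3).

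Its mean log2 fold change over the varieties was 0.22 (SE 0.064, 95% interval 0.08 to 0.35, adjusted p = 0.0154 in edgeR), which is a 1.16-fold increase. Its log2 fold changes in single varieties were all above 0, from 0.13 in Passport, 0.17 in Infinity and 0.20 in Golden Promise to 0.27 in Regina and 0.32 in Pilastro. Of all genes tested, 14.7% had a fold change above 0 in all 5 varieties. The response in Pilastro reached an unadjusted p of 0.0347 and an adjusted p of 0.208 in edgeR. Between libraries with the same replicate number, the waterlogged one was higher in 14 of 15 pairs, 3 of 3 each in Passport and Regina, where the numbers paired the libraries. No omission of a library turned the direction in any variety. The mean increase passed the test in 35 of 35 alternative fits, with adjusted p of 0.00306 to 0.0338 in these and the reported fit.

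The summed level of the 2 leaf markers was 4.18 to 10.1 CPM in the 15 control libraries (median 6.50) and 1.91 to 5.88 CPM in the 15 waterlogged ones (median 3.09). Rubisco activase had medians of 4.92 and 2.26 CPM and was detected in all libraries. The Rubisco small chain had medians of 1.17 and 1.02 CPM and read 0 in 1 waterlogged library. The part of these transcripts in the hydrolase's increase, or in the lower values of the LRR kinase below, was not tested.

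The LRR protein kinase 5HG0508880 was lower after waterlogging by its fold change in all 5 varieties, but no fall passed the test. In Golden Promise the waterlogged library was higher in 2 of 3 pairs with the same replicate number. Golden Promise controls read 26.7, 36.5 and 26.6 CPM and its waterlogged libraries 26.7, 25.9 and 29.9 CPM. Infinity controls read 28.2, 32.7 and 27.2 CPM and its waterlogged libraries 21.0, 24.4 and 24.3 CPM. Infinity was the only variety in which all 3 waterlogged libraries of this gene lay below all 3 controls. Of all genes tested, 12.5% did so there, and 22.7% did not overlap in either direction. Pilastro controls read 23.4, 51.3 and 58.6 CPM and its waterlogged libraries 28.01, 28.5 and 33.5 CPM. Regina controls read 34.0, 29.0 and 20.3 CPM and its waterlogged libraries 22.4, 30.2 and 16.2 CPM. Passport, the lowest variety, read 12.99, 20.6 and 18.0 CPM in controls and 9.61, 16.8 and 20.5 CPM after waterlogging.

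In Pilastro, control replicate 1 held less than any other library of that group by a wide margin and lay below all of the waterlogged ones. The mean log2 fold change of the LRR kinase was -0.29 (SE 0.13, 95% interval -0.55 to -0.02, adjusted p = 0.1003 in edgeR). Single varieties ran from -0.57 in Pilastro (95% interval -1.15 to 0.02, adjusted p = 0.266) to -0.12 in Golden Promise (95% interval -0.71 to 0.47, adjusted p = 1). A fold change below 0 in all 5 varieties was shared by 21.4% of all genes tested. The direction of the LRR kinase turned in Golden Promise without control replicate 2 (0.05) and in Passport without control replicate 2 (0.03) or waterlogged replicate 1 (0.12). Without Pilastro control replicate 1 the mean change was -0.35 (adjusted p = 0.0216), which passes the threshold. A block for the replicate number within each variety gave -0.28 (adjusted p = 0.0395), which passes it too.

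The protein kinase 2HG0188270 had the steadiest level of the 6 genes. Its 30 libraries covered 53.2 to 77.1 CPM, a 1.45-fold range, and its biological coefficient of variation between libraries of a group was 9.46%, at the 8.57th percentile of all genes tested (median 17.3%). Golden Promise read 60.0, 66.5 and 65.3 CPM in controls and 69.0, 71.0 and 71.4 CPM after waterlogging. Pilastro read 74.9, 73.0 and 70.5 CPM in controls and 65.9, 61.5 and 65.5 CPM after waterlogging. All waterlogged libraries were thus above all controls in Golden Promise and below all controls in Pilastro. The log2 fold changes were 0.14 in Golden Promise (SE 0.10, 95% interval -0.07 to 0.35, adjusted p = 0.972) and -0.18 in Pilastro (SE 0.10, 95% interval -0.39 to 0.04, adjusted p = 0.340). Neither passed the test in edgeR, and over all genes 12.2% did not overlap in Golden Promise and 24.7% in Pilastro, in either direction. All waterlogged libraries lay above all controls for 6.48% of all genes in Golden Promise, and below them for 11.7% in Pilastro. The Pilastro response minus the Golden Promise response, a contrast chosen after these values were seen, was -0.32 (SE 0.15, adjusted p = 0.705), and it called 0.00486% of all genes. In Infinity, Passport and Regina the groups overlapped, with log2 fold changes of 0.06, -0.07 and -0.09. Each of these turned without 1 control library, to -0.03 without Infinity replicate 3, 0.03 without Passport replicate 1 and 0.0030 without Regina replicate 2. The mean change was -0.03 with a 95% interval of -0.12 to 0.07, so that a mean change beyond 1.05-fold upward or below 0.918-fold lay outside the interval.

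The kinase family protein 2HG0187930 was the most variable of the 6 genes. Infinity read 8.55, 3.61 and 5.04 CPM in controls and 5.57, 8.38 and 28.3 CPM after waterlogging. Passport read 3.92, 20.1 and 13.2 CPM in controls and 20.5, 17.9 and 13.2 CPM after waterlogging. Regina read 3.15, 4.00 and 13.5 CPM in controls and 4.44, 14.7 and 14.8 CPM after waterlogging. Single libraries stood far from the other libraries of their group in each of these, and the lowest and highest of the 30 libraries differed 8.96-fold. Golden Promise was more even, at 11.02, 7.27 and 10.3 CPM in controls and 9.72, 5.72 and 7.48 CPM after waterlogging. Pilastro read 14.1, 4.30 and 3.89 CPM in controls and 5.84, 6.27 and 5.08 CPM after waterlogging.

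The coefficient of variation of 2HG0187930 was 52.7%, at the 90.9th percentile of all genes tested. Its log2 fold changes ran from -0.38 in Pilastro to 1.29 in Infinity (SE 0.65, 95% interval -0.06 to 2.64, adjusted p = 0.315 in edgeR). The mean was 0.36 with a 95% interval of -0.24 to 0.95 (adjusted p = 0.387). Single libraries set much of these values: the Infinity change was 0.28 without Infinity waterlogged replicate 3 and 1.70 without Infinity control replicate 1, and the Pilastro change turned to 0.45 without Pilastro control replicate 1. The Passport change was 0.05 without Passport control replicate 1 and 1.02 without Passport control replicate 2, and the Regina change was 1.67 without Regina control replicate 3. None of these passed the test. With this spread, a 6.24-fold increase in Infinity and a decrease to 0.303-fold in Pilastro were still within the intervals.

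The polypyrimidine tract-binding protein 1HG0075830 showed higher means after waterlogging in 4 of 5 varieties, but no change passed the test. Infinity read 8.46, 9.49 and 9.18 CPM in controls and 12.9, 10.8 and 9.95 CPM after waterlogging. All of its waterlogged libraries were above all controls there, and the log2 fold change was 0.31 (SE 0.16, 95% interval -0.03 to 0.65, adjusted p = 0.343 in edgeR). Of all genes tested, 22.7% did not overlap in Infinity, 10.2% with all waterlogged libraries above all controls. Passport read 12.7, 10.8 and 8.77 CPM in controls and 13.7, 13.5 and 11.6 CPM after waterlogging, with overlap. The other 3 varieties had log2 fold changes of -0.06 in Golden Promise, 0.12 in Pilastro and 0.01 in Regina. These turned to 0.09 without Golden Promise control replicate 3, to -0.0034 without Pilastro waterlogged replicate 1, and to -0.10 or -0.09 without Regina control replicate 1 or waterlogged replicate 3. The mean change was 0.13 (95% interval -0.02 to 0.28, adjusted p = 0.195).

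The F-box/LRR-repeat protein 7HG0736350 had its largest difference in Passport. There it read 10.0, 5.84 and 6.97 CPM in controls and 10.9, 9.81 and 9.10 CPM after waterlogging. The groups overlapped through control replicate 1, and the log2 fold change was 0.38 (SE 0.22, 95% interval -0.07 to 0.84, adjusted p = 0.455 in edgeR). The other varieties had log2 fold changes from -0.08 to 0.08, each of which turned without 1 library. These libraries were Golden Promise waterlogged replicate 2 (0.02), Infinity control replicate 3 (-0.10) or waterlogged replicate 2 (-0.03), Pilastro waterlogged replicate 1 (0.08), and Regina control replicate 2 (0.13) or waterlogged replicate 1 (0.06). For this gene the mean was 0.06 (95% interval -0.15 to 0.26, adjusted p = 0.722).

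**Figure D2:**
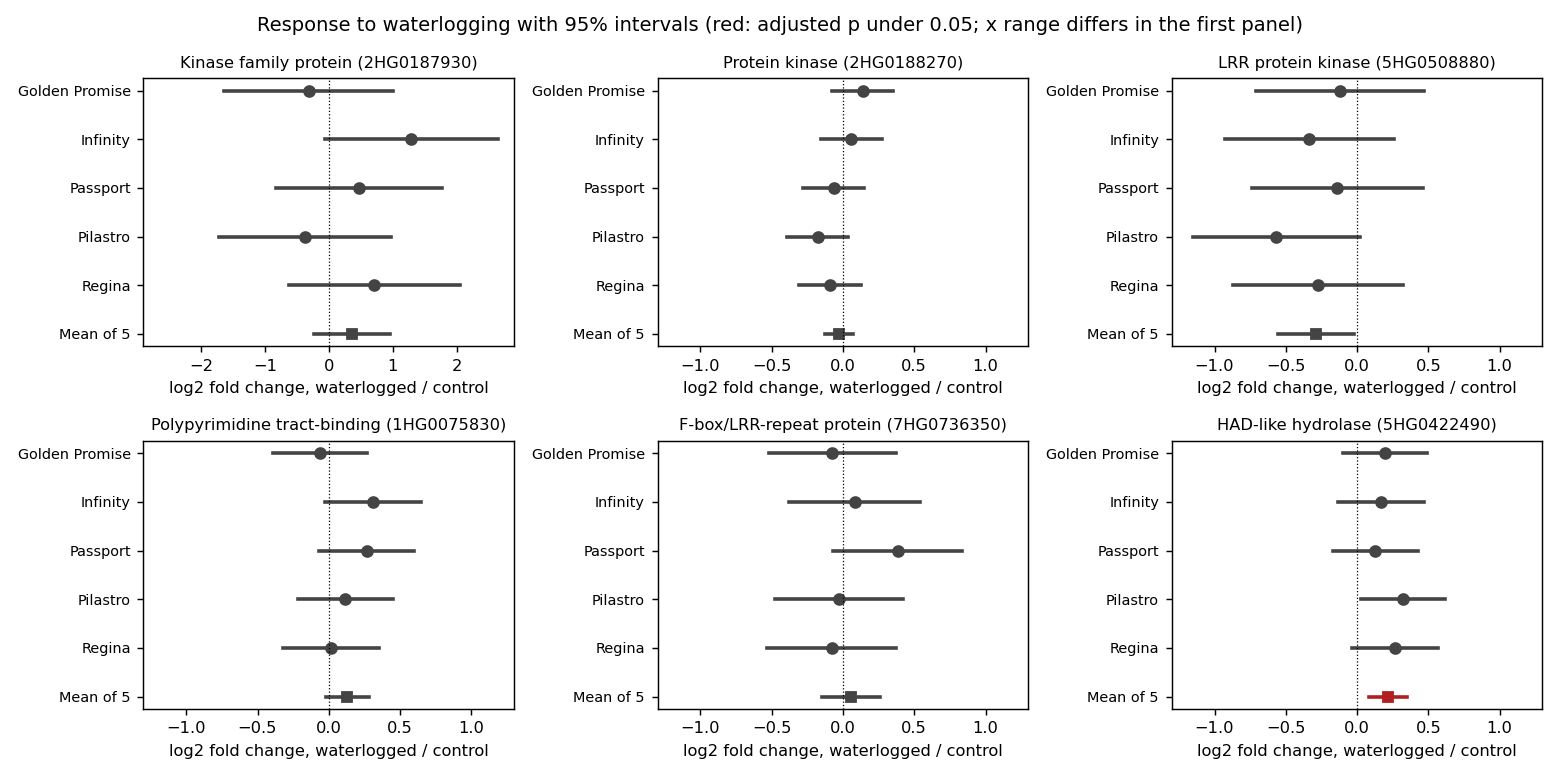
Log2 fold change of waterlogged over control roots (x axis) with 95% intervals for each of the 6 genes, by variety (circles) and averaged over the 5 varieties (squares); red marks an adjusted p under 0.05 in edgeR, and the first panel has a wider x range. The mean of the HAD-like hydrolase, 0.22 with an interval of 0.08 to 0.35, is the only value marked red.

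Over the 30 comparisons, control and waterlogged libraries did not overlap in 4 and overlapped in 26. The 4 cases lay in Pilastro, Infinity and Golden Promise, where 24.7%, 22.7% and 12.2% of all genes tested did not overlap. The share of all genes without overlap was 17% in Regina and 21.1% in Passport, and none of the 6 genes was without overlap in those varieties. A test of whether the response differed between varieties, with 4 degrees of freedom, gave an adjusted p of 1 for each of the 6 genes. It called 0% of all genes in edgeR, with 3.22% at an unadjusted p under 0.05, and neither edgeR nor DESeq2 called any of the 6.

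Variety went with more of the variation than the treatment did in all 6 genes. Of the sum of squares of log2 CPM, variety took 59.0% in the polypyrimidine tract-binding protein, 54.6% in the LRR kinase, 53.2% in the HAD-like hydrolase and 39.95% in the F-box protein, and 20.7% in 2HG0188270 and 19.2% in 2HG0187930. Variety has 4 degrees of freedom and treatment 1, so that these shares are not on equal terms. The treatment took at most 15.8%, in the hydrolase, and 0.804% at the least, in the protein kinase 2HG0188270. Libraries of the same group took 64.3% in 2HG0187930 and 59.2% in 2HG0188270. The medians over all genes tested were 31.1% for variety, 5.59% for treatment, 5.87% for the interaction and 46.2% within groups.

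**Figure D3:**
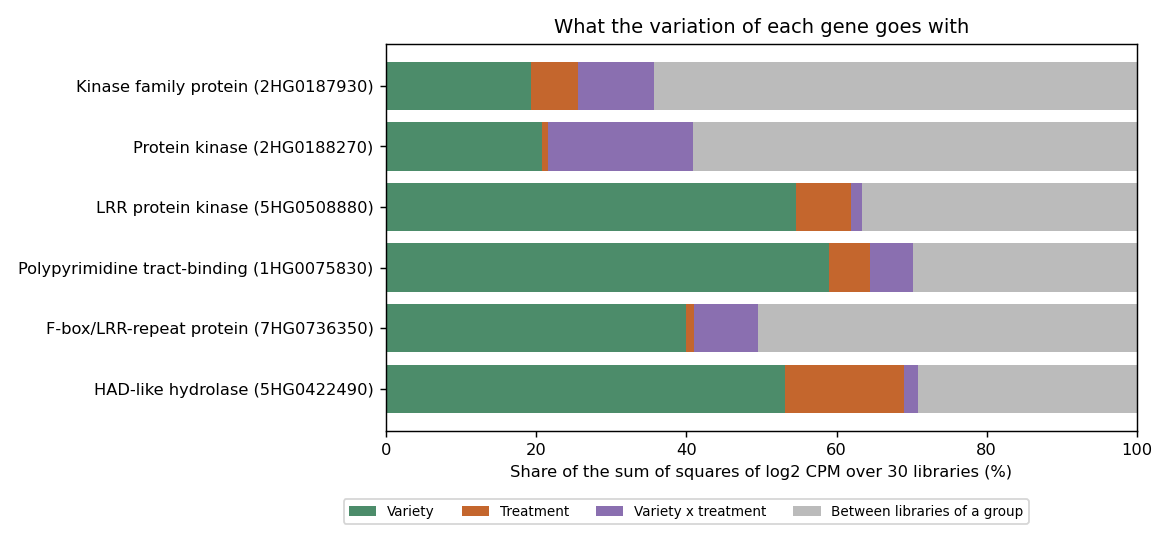
Share of the sum of squares of log2 CPM over 30 libraries (x axis, %) that goes with variety, treatment, their interaction and the spread between libraries of a group, for each of the 6 genes (rows). Variety holds 59.0% in the polypyrimidine tract-binding protein, and libraries of a group hold 64.3% in 2HG0187930.

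In control roots, 3 of the 6 genes differed between the varieties in an F-test over all 5 (edgeR), while 26.7% of all genes did. These were the polypyrimidine tract-binding protein (adjusted p = 0.00482), the LRR kinase (adjusted p = 0.0147) and the HAD-like hydrolase (adjusted p = 0.0334). The F-box protein had an adjusted p of 0.0627, the protein kinase 2HG0188270 of 0.268 and the kinase family protein 2HG0187930 of 0.590. In waterlogged roots 1 of the 6 genes was called, the hydrolase (adjusted p = 0.0290), beside 23.3% of all genes. With both treatments averaged, an alternative chosen after seeing the data, 4 of the 6 were called, the F-box protein being the added one (adjusted p = 0.0326), beside 47.8% of all genes. A call in controls and none in waterlogged roots does not show that the difference between varieties changed, and the interaction test above called none of these genes.

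Among pairs of varieties, 5 of 60 comparisons of the 6 genes in control roots were called (8.33%), beside 9.66% of all genes on average over the 10 pairs (4.3% to 19.6%). In waterlogged roots 1 of 60 was called (1.67%), beside 8.51% of all genes on average (4.7% to 15.8%). These counts belong to 3 genes in controls and 1 in waterlogged roots. Each called pair is given below with the share of all genes called in the same pair.

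The polypyrimidine tract-binding protein was highest in Golden Promise controls, with 16.0, 12.6 and 18.7 CPM, and lowest in Infinity controls, with 8.46 to 9.49 CPM. Pilastro controls read 15.4, 12.8 and 12.7 CPM and Regina controls 9.55, 11.5 and 13.1 CPM. Infinity was lower than Golden Promise with a log2 difference of -0.80 (SE 0.16, adjusted p = 0.00153, with 10.8% of all genes called in the pair), to 0.574-fold, without overlap of the libraries. The share of all genes without overlap between a pair of varieties was not counted, here or below. Passport was lower than Golden Promise with a log2 difference of -0.55 (SE 0.16, adjusted p = 0.0302, 9.39% of all genes), and the highest Passport library just passed the lowest Golden Promise one. Pilastro was higher than Infinity with a log2 difference of 0.59 (SE 0.16, adjusted p = 0.0190, 12.5% of all genes), again without overlap.

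The first of these differences kept its call in every alternative fit, with adjusted p up to 0.0167. The difference of Passport was lost without Golden Promise control replicate 1 or 3 (adjusted p = 0.103 and 0.195) and without Passport control replicate 2 or 3 (adjusted p = 0.0716 and 0.181). The difference between Pilastro and Infinity was lost without Infinity control replicate 1 or 3 (adjusted p = 0.0692 and 0.0591) or Pilastro control replicate 1 (adjusted p = 0.0531). In a fit of the control libraries alone both were lost (adjusted p = 0.0992 for Passport and 0.0662 for Pilastro). Regina, with a log2 difference from Golden Promise that missed the threshold, was called lower without Golden Promise control replicate 2 (-0.61, adjusted p = 0.0241) or Regina control replicate 3 (-0.58, adjusted p = 0.0392). The F-test over 5 varieties was passed in 37 of 37 alternatives, among them the test with both treatments averaged, which was chosen after seeing the data. Within the 3 varieties with samples numbered 1 to 3 it had an adjusted p of 0.00339, with 13.4% of all genes called.

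After waterlogging Golden Promise and Pilastro again had the highest means of the polypyrimidine tract-binding protein. Golden Promise read 16.4, 14.1 and 14.8 CPM, Pilastro 17.0, 13.7 and 13.6 CPM, and Regina 10.3, 11.1 and 13.1 CPM. Infinity, at 12.9, 10.8 and 9.95 CPM, stood below Golden Promise with a log2 difference of -0.43 (95% interval -0.77 to -0.10, adjusted p = 0.0725 in edgeR). Without Infinity waterlogged replicate 1 the difference was -0.56 (adjusted p = 0.0383). Every neighbouring pair in the order of the 10 group means of this gene overlapped in its libraries.

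The LRR kinase differed most between the 6-row varieties. Control roots of Pilastro averaged 44.4 ± 18.5 CPM (SD, n = 3) and those of Passport 17.2 ± 3.88 CPM (SD, n = 3). All Pilastro libraries lay above all Passport ones, a separation that was not counted over all genes. The log2 difference was 1.37 (SE 0.29, 95% interval 0.77 to 1.97, adjusted p = 0.00370 in edgeR), or 2.58-fold, in a pair in which 5.82% of all genes were called. It passed in every alternative fit, with adjusted p up to 0.0368 and log2 differences of 1.11 to 1.70. After waterlogging the same pair differed by 0.94 (95% interval 0.34 to 1.54, adjusted p = 0.0634). That call was made without Passport waterlogged replicate 3 (adjusted p = 0.0472), without Pilastro control replicate 1 (0.0229), in DESeq2 (0.0345) and with a block for the replicate number (0.0401).

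Among the 2-row varieties no pair was called for the LRR kinase under either treatment. Control means were 29.9 ± 5.66 CPM in Golden Promise, 29.4 ± 2.95 CPM in Infinity and 27.8 ± 6.97 CPM in Regina (SD, n = 3 each), and their F-test had an adjusted p of 0.974. The 95% interval of the difference between Infinity and Golden Promise controls ran from -0.62 to 0.56 on the log2 scale, which leaves room for a difference. Waterlogged means were 27.5 ± 2.14 CPM in Golden Promise, 23.2 ± 1.91 CPM in Infinity and 22.9 ± 7.00 CPM in Regina (SD, n = 3 each). The F-test over the 5 varieties lost its call without Passport control replicate 1 (adjusted p = 0.0589), Pilastro control replicate 2 (0.0617) or Pilastro control replicate 3 (0.0735), and in a fit of the control libraries alone (0.0563). Without Pilastro control replicate 1, the lowest of its group, control Pilastro was also above Golden Promise (log2 difference 0.91, adjusted p = 0.0170), Infinity (0.94, adjusted p = 0.0210), and control Regina was below it (-1.01, adjusted p = 0.0151). With that library these differences were 0.57, 0.60 and -0.68, with adjusted p of 0.160, 0.175 and 0.121. The same omission called control Passport below Golden Promise (-0.79, adjusted p = 0.0387), the waterlogged pair likewise (-0.82, adjusted p = 0.0297), and the F-test in waterlogged roots (adjusted p = 0.0449).

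The HAD-like hydrolase was lower in Regina than in Golden Promise under both treatments. In controls the log2 difference was -0.60 (SE 0.14, 95% interval -0.90 to -0.30, adjusted p = 0.00821 in edgeR, 9.18% of all genes called in the pair), to 0.660-fold. In waterlogged roots it was -0.53 (SE 0.14, 95% interval -0.83 to -0.23, adjusted p = 0.0194, 9.36% of all genes), to 0.693-fold. The libraries of the varieties did not overlap under either treatment, and the share of all genes without such overlap was not counted. Within the varieties with samples numbered 1 to 3, the F-test had an adjusted p of 0.0166 in controls and 0.0274 in waterlogged roots, where 16.5% of all genes were called.

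These calls of the hydrolase depended on the libraries and settings of the fit. The difference in controls was lost without Golden Promise control replicate 1 (adjusted p = 0.0533) or Regina control replicate 2 (0.0737). The difference in waterlogged roots was lost without Golden Promise waterlogged replicate 1 or 2 (0.0927 and 0.0620) or Regina waterlogged replicate 2 (0.143), and in a fit of the waterlogged libraries alone (0.0532). Regina was also called below Pilastro in controls without Pilastro control replicate 1 (log2 difference -0.52, adjusted p = 0.0381). The F-test in controls was passed in 22 of 37 alternatives, among them the test with both treatments averaged, which was chosen after seeing the data. It was lost without Golden Promise control replicate 1, 2 or 3 (0.132, 0.0652 and 0.0782), Regina control replicate 2 or 3 (0.112 and 0.0508), Passport control replicate 2 or 3 (0.0582 and 0.0598) or Pilastro control replicate 2 or 3 (0.0764 and 0.0569). It was also lost without a waterlogged library, Infinity replicate 1 (0.0592), Passport replicate 2 or 3 (0.0582 and 0.0617) or Pilastro replicate 2 (0.0623), with no filter on low counts (0.0587) and in a fit of the control libraries alone (0.0591). The F-test in waterlogged roots was lost without a waterlogged library of Golden Promise (replicate 1 or 2, 0.0868 and 0.0707), Passport (replicate 3, 0.0582), Pilastro (replicate 2 or 3, 0.0610 and 0.0612) or Regina (replicate 2, 0.0861). The same happened without control replicate 1 or 3 of Golden Promise (0.0517 and 0.0536) or 3 of Passport (0.0534), and in a fit of the waterlogged libraries alone (0.0844).

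The F-box protein was not called in any pair of varieties in the reported fit. Its control means ran from 7.62 ± 2.18 CPM in Passport to 12.1 ± 3.31 CPM in Regina (SD, n = 3), and the log2 difference of that pair was 0.67 (95% interval 0.21 to 1.12, adjusted p = 0.0713 in edgeR). That pair was called in DESeq2 (0.0429) and without Passport control replicate 1 (0.0203) or Regina control replicate 1 (0.0214), and Passport was called below Golden Promise in DESeq2 (0.0472) and without Passport control replicate 1 (0.0193). The F-test in controls was passed without Infinity control replicate 2 (adjusted p = 0.0454), Infinity waterlogged replicate 3 (0.0483), Passport control replicate 1 (0.0191) or Regina control replicate 1 (0.0212), and in DESeq2 (0.0263). Pilastro controls, at 10.3, 10.3 and 10.5 CPM, were the tightest group of this gene, and Regina controls, at 8.72, 15.3 and 12.2 CPM, the widest. The protein kinase 2HG0188270 came nearest to a call between Pilastro and Infinity controls, with a log2 difference of 0.26 (95% interval 0.05 to 0.48, adjusted p = 0.0981), and was called there in DESeq2 (0.0472) and without Infinity control replicate 1 (0.0204). For 2HG0187930 the smallest adjusted p of a pair was 0.209, between waterlogged Pilastro and Infinity.

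The LRR kinase has 2 candidates with close identifiers on 5H, the transporter-related proteins 5HG0508840 and 5HG0508860. The first of them ran in another order over the varieties. It was highest in Golden Promise controls, with 51.4, 31.4 and 39.8 CPM, and lowest in Pilastro controls, with 20.6, 15.9 and 9.60 CPM, the variety in which the LRR kinase was highest. The log2 difference of 5HG0508840 between Pilastro and Golden Promise was -1.41 (SE 0.25, adjusted p = 0.000443 in edgeR) in controls, in a pair with 19.6% of all genes called. For the LRR kinase the same difference was 0.57 (SE 0.28, 95% interval -0.02 to 1.16, adjusted p = 0.160). Whether these differences themselves differed was not tested, and the levels of 5HG0508860 by variety are not given here. In its mean response 5HG0508840 had a log2 fold change of -0.26 (adjusted p = 0.0847) and 5HG0508860 of -0.28 (adjusted p = 0.144), beside -0.29 for the LRR kinase, and none of the 3 passed the test.

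**Figure D4:**
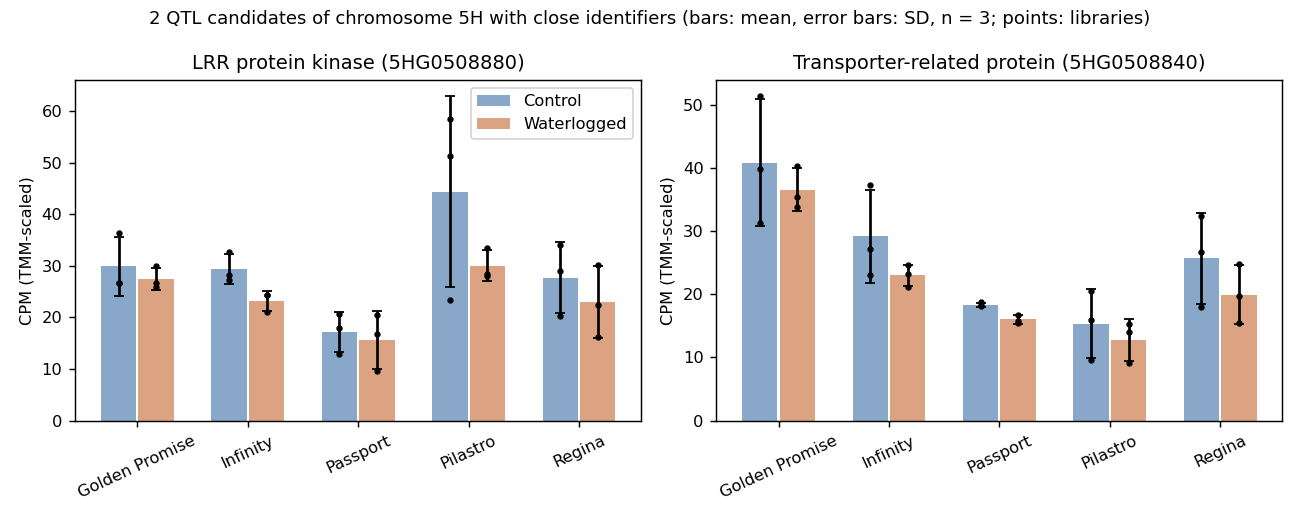
TMM-scaled CPM (y axis, from 0) of the LRR protein kinase 5HG0508880 (left) and the transporter-related protein 5HG0508840 (right) by variety; bars are means, error bars SD (n = 3), points libraries, blue control and orange waterlogged. Pilastro controls have the highest mean of the kinase, 44.4 CPM, and a mean of 15.3 CPM of the transporter-related gene, whose highest mean is 40.9 CPM in Golden Promise controls.

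On 2H, the aquaporin 2HG0188290, a channel for water, has an identifier close to that of the protein kinase 2HG0188270. Its mean log2 fold change was -0.43 (SE 0.11, adjusted p = 0.00536 in edgeR), a fall, whereas that of the kinase was -0.03 (SE 0.046). Golden Promise means of the aquaporin were 674.9 ± 107.5 CPM in controls and 420.8 ± 171.3 CPM after waterlogging (SD, n = 3). Whether the 2 genes differed in response was not tested.

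None of the other 15 tested candidates was called in any single variety either, where 0.442% to 4.04% of all genes were. Averaged over the varieties, 1 of them rose and 2 fell, beside 27.1% of all genes called. The ethylene response factor 6HG0621670 rose with a log2 fold change of 0.28 (SE 0.067, adjusted p = 0.00324), and the acyl-CoA-binding protein 7HG0640790, of a family that carries activated fatty acids, fell with one of -0.32 (SE 0.094, adjusted p = 0.0142). The median mean response of the 15 was -0.09, and that of all genes -0.02. Between varieties, 3 of the 15 were called in controls and 3 in waterlogged roots, beside 3 and 1 of the 6 kinases and regulators. The shares of all genes called were 26.7% and 23.3%. Whether the 2 lists differed was not tested.

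**Figure D5:**
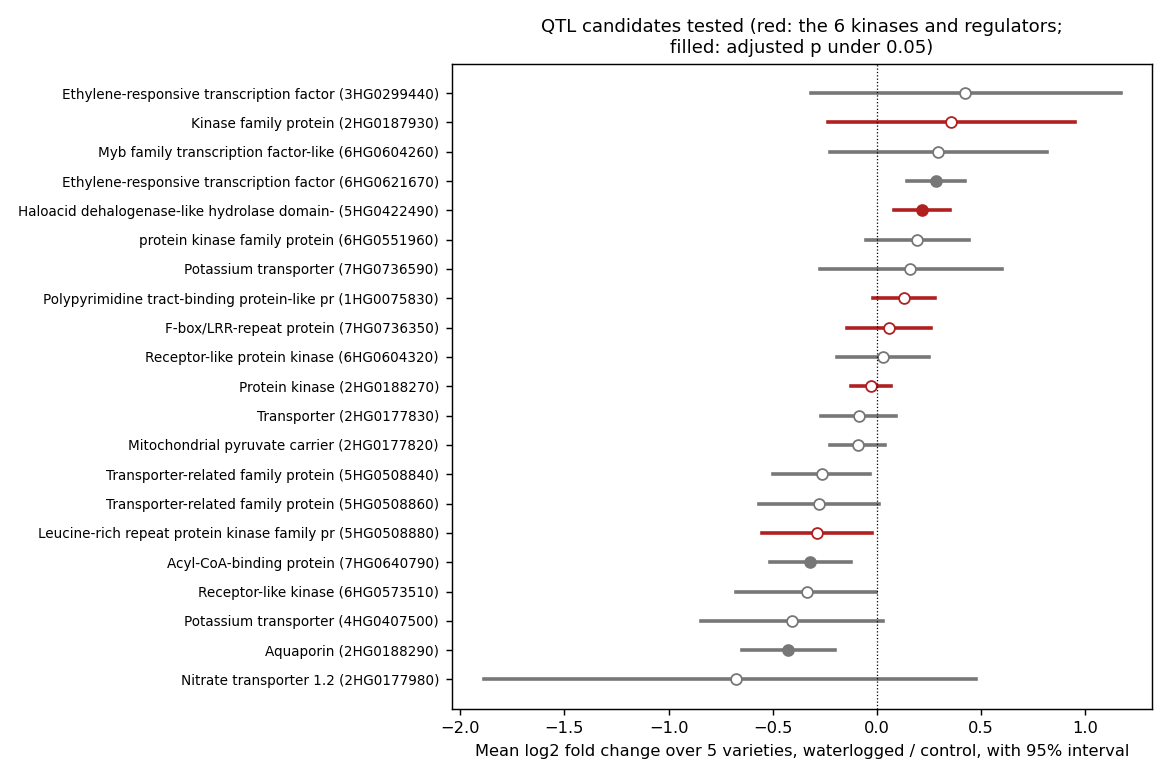
Mean log2 fold change over the 5 varieties (x axis) with 95% intervals for the 21 QTL candidates tested (rows), ordered by value; red marks the 6 kinases and regulators, grey the other 15, and filled points an adjusted p under 0.05 in edgeR. The HAD-like hydrolase at 0.22 is the 1 red filled point, and the 3 grey filled points are 6HG0621670 at 0.28, 7HG0640790 at -0.32 and 2HG0188290 at -0.43.

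The 6 genes followed no common pattern over the 30 libraries. Pearson's r of log2 CPM was highest between the polypyrimidine tract-binding protein and the F-box protein (0.51) and between the former and the HAD-like hydrolase (0.49). It was lowest between 2HG0187930 and the LRR kinase (-0.53). With group means taken out, these values were 0.33, -0.14 and -0.30. The lowest was then -0.64, between the polypyrimidine tract-binding protein and the LRR kinase, whose r over all libraries was -0.02. The libraries share varieties, treatments and runs, so these values describe the libraries only.

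The genes most like each of the 6 were taken from 3798 tested genes that carry a description at hand, most of them because they respond to the treatment or differ between varieties. The kinase family protein 2HG0187930 was most like 2 further kinase family proteins, 1HG0020440 (Pearson's r = 0.86 over 30 libraries) and 1HG0015720 (r = 0.84). The LRR kinase was most like the GRAM-containing/ABA-responsive protein 5HG0487770 and 1HG0066180, described as EG2771 (both r = 0.73). The protein kinase 2HG0188270 was most like 3HG0236320, described as always early, putative (r = 0.73), and the kinase family protein 1HG0004150 (r = 0.71). Neither the LRR kinase nor the regulators had a gene of their own description among those listed. How common kinases are among the described genes was not counted. The polypyrimidine tract-binding protein was most like the phospholipid-transporting ATPase 1HG0069040 and the alkyl transferase 3HG0300970 (both r = 0.75). The HAD-like hydrolase was most like the 3-deoxy-D-manno-octulosonic-acid transferase 3HG0300960 (r = 0.75) and the lumazine synthase 2HG0126230 (r = 0.71), and the F-box protein was most like a serine carboxypeptidase-like protein, 1HG0048990, and midasin, 1HG0039860 (both r = 0.67). For each of the 6, a gene without a description stood higher over all genes tested, with r from 0.74 to 0.92.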

How the data were processed

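The authors aligned single-end reads of 50 bases to the Morex version 3 genome with Bowtie2 2.4.5 and obtained counts per gene with StringTie 2.1.7. The deposited table holds these raw counts as whole numbers. Trimming, strand and the handling of reads that match several genes are not given in the sources used here, so members of the large kinase, F-box and LRR families may share reads with close copies. Groups came from the labels. All 30 libraries entered 1 edgeR 4.0.16 quasi-likelihood fit (R 4.3.3, TMM, filterByExpr, 1 coefficient per group), with p-values adjusted over all genes tested. Scripts were tested on simulated data, and 0 columns were left unused. Log2 CPM used a prior count of 2. DESeq2 1.42.0, other filters, size factors, replicate blocks, subsets and fits without each library were alternatives. Figures used matplotlib 3.10.9.

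Named were the 6 genes, candidates called in a response or with an identifier within 40 of a member's, the treatment markers and the most similar described genes. Members and lists were chosen with earlier results of these data known. The reference list at hand had 58438 entries and 0 matches to the identifiers, so descriptions are those of the study. Same-numbered control and waterlogged libraries deviated together in Passport (correlations of 0.278 to 0.537 over 10288 genes) and Regina (0.242 to 0.623), where every pair was over 0.1, and not in every pair of the other varieties.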

Additional observations from a re-analysis of the deposited data

Results flagged for a closer look

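The protein kinase 2HG0188270 drew notice because its libraries were arranged oppositely in 2 varieties: all 3 waterlogged libraries lay above all controls in Golden Promise and below all controls in Pilastro. Over all genes, 6.48% had all waterlogged libraries above all controls in Golden Promise and 11.7% had them below in Pilastro. In either direction, 12.2% and 24.7% did not overlap. Neither response of the kinase passed the test (log2 fold changes 0.14 and -0.18, adjusted p = 0.972 and 0.340 in edgeR). The Pilastro response minus the Golden Promise response was -0.32 on the log2 scale (SE 0.15, 95% interval -0.62 to -0.02), with an unadjusted p of 0.0398 and an adjusted p of 0.705 in edgeR, a contrast chosen after the values were seen. It called 0.00486% of all genes (1 of 20576), and the test over all 5 varieties gave an adjusted p of 1 for this kinase.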

How the results depend on the processing

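Counts of calls among the 6 genes in single varieties and in the interaction were 0 in the reported fit and in every alternative. The mean response had 1 call, 2 with a replicate block within variety, and 1 to 2 when each library was left out in turn. The F-test in control roots had 3 calls, 4 in DESeq2, 2 with no filter, 1 in a fit of the control libraries alone, 1 among sample names numbered 5 to 7, and 1 to 4 when each library was left out. The F-test in waterlogged roots had 1 call, 0 in a fit of the waterlogged libraries alone, 0 among sample names numbered 5 to 7, 4 with treatments averaged (chosen after seeing the data) and 0 to 2 when each library was left out. Pairs of varieties in control roots had 5 calls, 8 in DESeq2, 3 in a fit of the controls alone and 3 to 9 when each library was left out. Pairs in waterlogged roots had 1 call, 2 in DESeq2, 2 with an additive replicate block, 0 in a fit of the waterlogged libraries alone and 0 to 3 when each library was left out. The fits of 1 treatment alone hold fewer samples, and their scaling, filter and spread are estimated anew. The cause of these changes in calls was not tested. Over all genes, calls in Passport were 223 in the reported fit, 434 with the replicate block within variety and 592 in DESeq2, and calls in the interaction were 0, 9 and 23. DESeq2 also called 232 genes in Golden Promise against 91, 1301 in Infinity against 807 and 1518 in Pilastro against 785. Fits of 1 variety alone called 54 in Infinity, 0 in Pilastro, 345 in Regina against 832, 126 in Golden Promise and 262 in Passport. The replicate block changed no other call of the 6 genes. Over the tests of the 6 genes, 6185 values kept their side of the threshold, 44 lost it, 29 gained it and 0 of those called changed direction. Of the 30 uncalled responses in single varieties, 13 turned when 1 library was left out. With 3 libraries per group, intervals of 2HG0187930 were widest and left large changes within them.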
